A study of Mus musculus with 47 samples.

Results

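The levels of 10 genes of the astrocyte reactivity programme were followed in the striatum of mice that carry the Q140 Huntington's disease allele: Gfap, Vim, Serpina3n, Cd44, Osmr, Steap4, Fbln5, S1pr3, H2-D1 and C4b. They were chosen by name, and are 10 of the 48795 genes in the count table (0.0205%). All 10 had enough counts to be tested, among 19193 genes that were. Averaged over the 3 Ccdc82 backgrounds, Fbln5 fell by 41.3%, Osmr fell by 7.28%, H2-D1 rose by 12.5%, and the other 7 did not pass the test.

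The series measured RNA from the striatum of 47 mice aged 6 months, labelled C57BL, by stranded RNA sequencing of total RNA. The sample titles name mRNA. Q140 is a knock-in allele of Htt with an expanded CAG repeat, a model of Huntington's disease that carries the expansion in every cell. Ccdc82 encodes a coiled-coil protein, and the labels do not say what its mutant allele is. All mice with Q140 were heterozygous for it, per the labels. The groups were Q140 (8 mice) against WT (8), Q140 Ccdc82+/- (8) against Ccdc82+/- (8), and Q140 Ccdc82-/- (7) against Ccdc82-/- (8). Each group had 4 females and 4 males, apart from Q140 Ccdc82-/- with 3 females and 4 males. The comparisons ask whether these genes differ between mice with and without Q140, and whether mutation of 1 or both Ccdc82 copies changes that.

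Astrocytes respond to injury, inflammation and neurodegeneration with a change of state called reactivity. They then build up the intermediate filament proteins GFAP and vimentin, secrete protease inhibitors and complement, display more MHC class I, and remodel the matrix around them. Cytokines of the oncostatin M and interleukin 6 family drive much of this programme through the receptor chain gp130, the JAK kinases and the transcription factor STAT3. Lists drawn from mouse injury models place Gfap, Vim, Serpina3n, Cd44, Osmr, Steap4 and S1pr3 among genes shared by several kinds of reactivity, and Fbln5 and H2-D1 among genes of the response to inflammation. Astrogliosis is a feature of the human Huntington striatum, and knock-in mice are known for a milder glial response. None of the 10 genes is restricted to astrocytes: blood vessel, ependymal, immune and neuronal cells express several of them.

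Library totals ran from 41327333 to 61701245 counts, and the ranges of all 6 groups overlapped. The labels do not say which mice share a litter or cage, so p-values measure the spread between these mice. The IDs in the labels start with 1 of 19 numbers, 14 of them in several groups, whose meaning the labels do not give. Levels within a gene are given as CPM, counts scaled to library size by TMM, and levels between genes as the deposited FPKM, which also divides by gene length. Ccdc82 checked the labels: it averaged 4.57 ± 0.666 CPM in Ccdc82-/- striatum, 8.42 ± 0.519 CPM in Ccdc82+/- striatum and 12.01 ± 0.773 CPM in WT striatum (SD, n = 8 each). Htt, the gene that Q140 alters, averaged 199 ± 12.1 CPM in Q140 and 217 ± 9.36 CPM in WT striatum (SD, n = 8 each), a fall by the edgeR test (adjusted p = 4.62e-04) of the count over the whole gene that does not show the expansion itself. Astrocyte, neuronal and other marker lists were detected in every group, and no gene of any list was at 0 in all libraries. The library Ccdc82-/- male 4 stood apart. Over the 10 genes it lay 0.37 above its group mean on the log2 scale, more than any other library, and it was the highest of its group for 4 of them. Several values that depend on it are given with and without it.

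Expressed per length, the genes spanned a wide range. H2-D1 was the most abundant, at 12.2 ± 1.55 FPKM over all 47 libraries (SD), followed by C4b at 6.93 ± 1.13, Gfap at 5.93 ± 1.72 and Vim at 5.07 ± 0.713 FPKM. Serpina3n came next at 1.61 ± 0.355 FPKM, then Fbln5 at 1.25 ± 0.337 and S1pr3 at 1.15 ± 0.0920 FPKM. Osmr at 0.340 ± 0.0371 and Cd44 at 0.310 ± 0.0362 FPKM were lower, and Steap4 at 0.0619 ± 0.0295 FPKM rested on 3 to 21 counts a library. In that order, the ranges of mean ± SD overlap for C4b with Gfap, Gfap with Vim and Serpina3n with Fbln5. They also overlap for Fbln5 with S1pr3 and Osmr with Cd44. The order within these pairs was not tested. The genes also differed in how far mice of 1 group varied. Within groups the coefficient of variation was 3.92% to 9.63% for S1pr3 and 13.97% to 36.7% for Gfap.

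**Figure D1:**
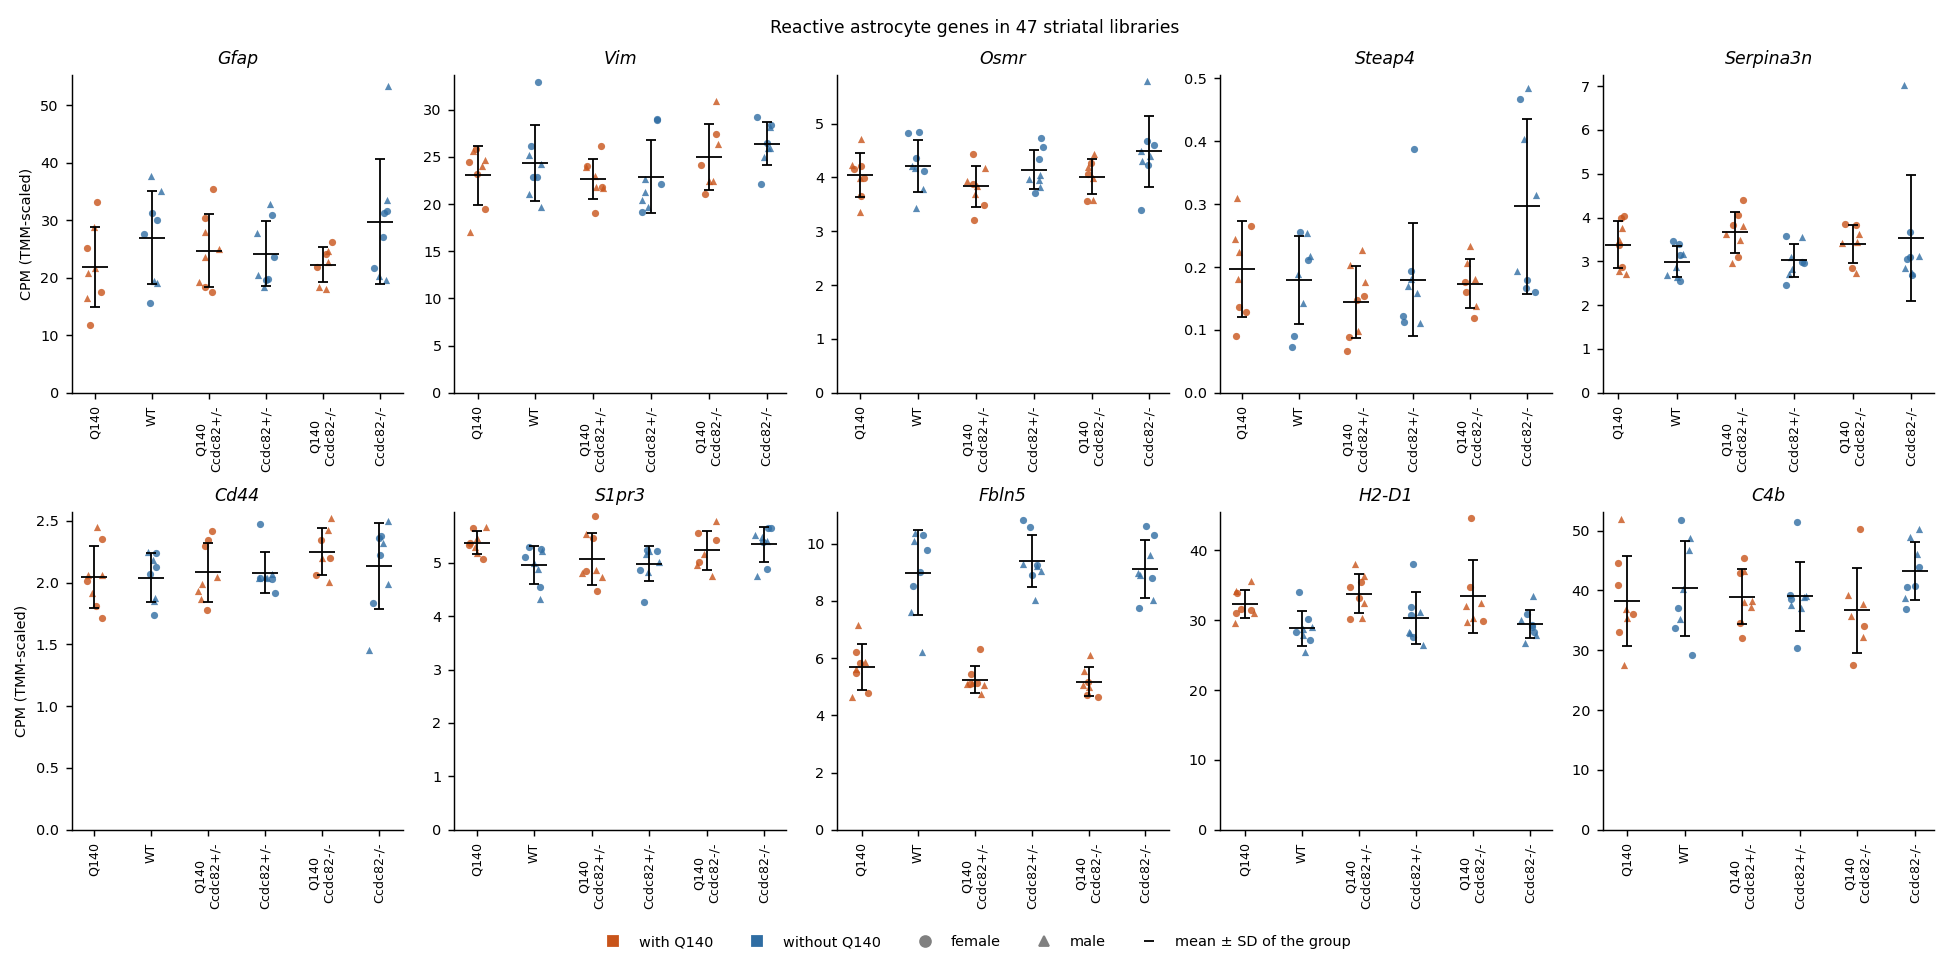
TMM-scaled CPM (vertical axis, from 0) of the 10 genes in each of the 47 striatal libraries, by genotype; circles are females, triangles are males, and bars are the group mean ± SD. The Q140 points of Fbln5 lie below those of the matching genotypes without Q140, with overlap only between Q140 and WT, whereas the points of Gfap and Vim overlap in all 3 pairs.

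Promoter sequences were taken from RefSeq (GRCm38.p6, 250 bases before to 50 bases after the annotated start), where 9 of the 10 genes had an entry. Of these, 4 are shown: the pair that holds the palindrome TTCNNNGAA, to which STAT proteins bind, and the pair, Fbln5 and H2-D1, whose change with Q140 in the average was called whichever library was left out. Capitals mark the palindrome, and the sequences run 5′ to 3′ on the strand of the gene.
Gfap, chr11:102897151-102897450, minus strand: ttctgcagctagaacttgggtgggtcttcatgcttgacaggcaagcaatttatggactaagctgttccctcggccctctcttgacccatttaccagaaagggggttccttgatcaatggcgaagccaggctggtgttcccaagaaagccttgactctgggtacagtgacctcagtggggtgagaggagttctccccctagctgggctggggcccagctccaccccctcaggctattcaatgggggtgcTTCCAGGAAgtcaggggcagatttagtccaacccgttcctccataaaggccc
Steap4, chr5:7960222-7960521, plus strand: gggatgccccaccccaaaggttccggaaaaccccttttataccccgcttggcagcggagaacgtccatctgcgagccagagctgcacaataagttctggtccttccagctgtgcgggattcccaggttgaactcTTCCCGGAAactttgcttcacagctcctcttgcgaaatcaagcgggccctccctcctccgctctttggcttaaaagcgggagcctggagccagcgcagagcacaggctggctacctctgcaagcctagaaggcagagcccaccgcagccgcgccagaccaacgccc
Fbln5, chr12:101819070-101819369, minus strand: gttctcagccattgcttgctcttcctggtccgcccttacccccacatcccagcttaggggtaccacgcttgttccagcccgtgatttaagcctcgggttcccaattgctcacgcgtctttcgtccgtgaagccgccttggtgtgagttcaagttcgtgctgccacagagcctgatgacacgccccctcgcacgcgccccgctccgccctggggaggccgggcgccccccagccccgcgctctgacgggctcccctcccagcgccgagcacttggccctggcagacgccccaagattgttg
H2-D1, chr17:35262844-35263143, plus strand: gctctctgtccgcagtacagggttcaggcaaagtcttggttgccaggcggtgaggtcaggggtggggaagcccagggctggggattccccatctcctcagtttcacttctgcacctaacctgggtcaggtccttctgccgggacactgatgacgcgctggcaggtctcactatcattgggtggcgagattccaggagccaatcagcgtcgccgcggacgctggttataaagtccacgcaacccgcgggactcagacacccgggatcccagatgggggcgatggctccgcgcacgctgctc
The palindrome begins at position -2 in the Gfap promoter and at position -116 in that of Steap4, counted from the first transcribed base as 0. Read on both strands alike, it occurs in 8.3% of the 32851 mouse promoters in the table, and its presence in 2 of these genes is a description, not a site. The AP-1 letters TGANTCA, searched on both strands, were found for Osmr at position 3 (7.81% of all promoters). A fixed NF-kB pattern, searched on both strands, was found for Vim at -223, Steap4 at -226 and Serpina3n at -171 (1.63% of all promoters). A shortened interferon response motif, also searched on both strands, was found at 5 in a second RefSeq promoter of Fbln5, not shown (3.44%). Each was searched as a fixed pattern of letters, so other forms of these sites would be missed. The lack of a match to either pattern, as for H2-D1, therefore does not show that its promoter lacks such sites. The letters TATAAA, searched on the strand of the gene, were found for Vim at -32 and for H2-D1 at -26 (8.32% of all promoters).

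Q140 changed a large part of the striatal transcriptome, and the reactive astrocyte genes were called at shares near or below those of all genes. In Q140 against WT striatum, 1 of the 10 genes rose (H2-D1) and 1 fell (Fbln5), where 18.2% of all tested genes rose and 16.5% fell. On the Ccdc82+/- background, 0 rose and 1 fell (Fbln5), against 18.4% and 16.7% of all genes. H2-D1 was the nearest to a rise there (adjusted p = 0.0574), and 3 of the 10 genes had an unadjusted p under 0.05. On the Ccdc82-/- background, 1 rose (H2-D1) and 2 fell (Fbln5 and Steap4), against 17.5% and 15.7%. In the average over the 3 backgrounds, 1 rose (H2-D1) and 2 fell (Fbln5 and Osmr), against 28.8% and 25.5%. With 10 genes, these counts are not read as a result about the list. The median log2 fold change of the 10 genes was -0.03, 0.00, -0.11 and -0.08 in these 4 comparisons, where that of all genes lay between -0.00051 and 0.011. The deposited FPKM scaling moves the balance of all genes upward, to 8661 higher and 2893 lower in the average, against 5527 higher and 4892 lower on the TMM scale. Small differences of the 10 genes, apart from Steap4, were therefore also run on FPKM. Values of other genes and of marker lists below are on the TMM scale unless FPKM is named, and small ones among them may depend on it. The 3 pairs share no library, while the average uses all of them.

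**Figure D2:**
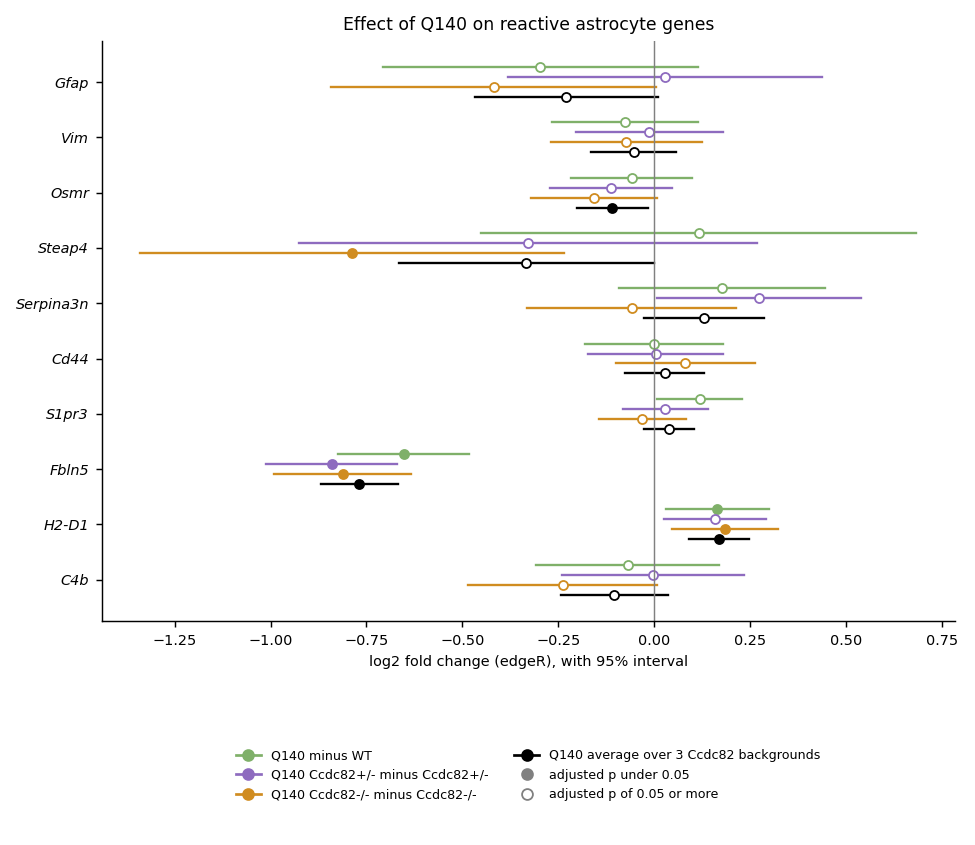
Log2 fold change with its 95% interval (horizontal axis, edgeR) of each of the 10 genes for Q140 on the 3 Ccdc82 backgrounds and for their average; filled points have an adjusted p under 0.05. Fbln5 lies between -0.84 and -0.65 in all comparisons and H2-D1 between 0.16 and 0.18, while the intervals of most other genes cross 0.

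Gfap (ENSMUSG00000020932, chr11:102887336-102900912, minus strand, GRCm38) encodes the intermediate filament protein by which astrogliosis is usually scored. It measured 11.8 to 33.1 CPM with a median of 21.3 in Q140 striatum, against 15.7 to 37.6 with a median of 28.8 in WT striatum. On the Ccdc82+/- background it measured 17.5 to 35.5 CPM (median 24.4) in Q140 Ccdc82+/- striatum and 18.3 to 32.9 (median 22.1) in Ccdc82+/- striatum. On the Ccdc82-/- background it measured 18.1 to 26.3 CPM (median 22.7) in Q140 Ccdc82-/- striatum and 19.5 to 53.3 (median 29.2) in Ccdc82-/- striatum. The groups overlapped in all 3 pairs, although all 7 Q140 Ccdc82-/- libraries lay below the Ccdc82-/- median. The log2 fold changes were -0.30 ± 0.20 (SE, adjusted p = 0.274) for Q140 against WT, 0.03 ± 0.20 (adjusted p = 0.936) on the Ccdc82+/- background and -0.42 ± 0.21 (adjusted p = 0.127) on the Ccdc82-/- background. None of the 3 tests called a change, and the 95% interval of the average ran from -0.47 to 0.01. Without Ccdc82-/- male 4 the Ccdc82-/- difference was -0.24 (adjusted p = 0.407). With the plate column of the well as a further term, Gfap fell by 0.59 in Q140 against WT (adjusted p = 0.0434) and by 0.34 in the average (adjusted p = 0.0206), which is the one setting that called it. With the first number of the label ID as a factor, an alternative added after seeing the data, Gfap measured 0.06 in Q140 against WT (adjusted p = 0.891). A long noncoding RNA gene, Gm26668, overlaps Gfap on the other strand, and whether the counting used strand is not given in the sources used here.

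Vim (ENSMUSG00000026728, chr2:13573927-13582826, plus strand) encodes vimentin, the filament partner of GFAP in reactive astrocytes, which endothelial, ependymal and mesenchymal cells also make. Its median was 24.2 CPM in Q140 and 23.5 CPM in WT striatum, 22.4 CPM in Q140 Ccdc82+/- and 21.7 CPM in Ccdc82+/- striatum, and 24.2 CPM in Q140 Ccdc82-/- and 26.2 CPM in Ccdc82-/- striatum. All 3 pairs overlapped, and no test called a change. The log2 fold changes were -0.08, -0.01 and -0.07 (adjusted p of 0.575, 0.937 and 0.623), and the average was -0.05 with a 95% interval of -0.17 to 0.06. On the FPKM scale the average was 0.01, so Vim has no direction that holds on both scales. Of 13 other tested genes of intermediate filaments and hyaluronan, 1 rose and 4 fell in the average, beside 28.8% and 25.5% of all genes. Has1, a hyaluronan synthase, rose by 0.42 ± 0.05 (adjusted p = 1.79e-10) and Plec, the filament crosslinker plectin, fell by 0.15 ± 0.03 (adjusted p = 1.18e-06). The filament genes Nes (-0.11 ± 0.09) and Synm (0.01 ± 0.03), which reactive astrocytes also raise, did not pass the test.

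Osmr (ENSMUSG00000022146, chr15:6813577-6874969, minus strand) encodes the receptor chain that pairs with gp130 to bind oncostatin M. It measured 3.37 to 4.72 CPM (median 4.08) in Q140 and 3.42 to 4.84 CPM (median 4.19) in WT striatum. In Q140 Ccdc82+/- striatum it measured 3.21 to 4.43 CPM (median 3.86), against 3.71 to 4.73 CPM (median 4.01) in Ccdc82+/- striatum. In Q140 Ccdc82-/- striatum it measured 3.57 to 4.43 CPM (median 4.07), against 3.40 to 5.78 CPM (median 4.44) in Ccdc82-/- striatum. The groups overlapped in all 3 pairs, with all 7 Q140 Ccdc82-/- libraries below the Ccdc82-/- median. No single background passed the test (log2 fold changes of -0.06, -0.11 and -0.16), and the average fell by 0.11 ± 0.05 (adjusted p = 0.0417). That call is not firm. It was lost when any of 17 of the 47 libraries was left out, most of all without Ccdc82-/- male 4 (-0.09, adjusted p = 0.0889), and on the FPKM scale the value was -0.03 (adjusted p = 0.502). With the label number as a factor Osmr measured 0.01 in Q140 against WT, and the average still passed (-0.11, adjusted p = 0.0485).

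Around the receptor, 5 of 18 tested genes of gp130, JAK and STAT3 signalling rose and 5 fell in the average, with a median of -0.04. These counts are near the shares of all genes, 28.8% and 25.5%. Lifr, the receptor chain for leukaemia inhibitory factor, rose by 0.12 ± 0.02 (adjusted p = 5.06e-07), and Stat3 rose by 0.08 ± 0.02 (adjusted p = 4.16e-04). Cntfr, the binding chain for ciliary neurotrophic factor, fell by 0.14 ± 0.02, and Ptpn11, a phosphatase of the pathway, fell by 0.09 ± 0.01. The feedback inhibitor Socs3 measured -0.10 ± 0.08 (adjusted p = 0.266). Il6st, which encodes gp130, measured 0.03 ± 0.02 and did not pass either, and the ligands Osm and Il6 had too few counts to test.

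Steap4 (ENSMUSG00000012428, chr5:7960457-7982213, plus strand) encodes a metalloreductase induced by inflammatory cytokines, and is the other gene here with the STAT palindrome in its promoter. It measured 0.119 to 0.234 CPM (median 0.176) in Q140 Ccdc82-/- striatum, against 0.161 to 0.485 CPM (median 0.255) in Ccdc82-/- striatum. All 7 Q140 Ccdc82-/- libraries lay below the Ccdc82-/- median, and the groups overlapped. Steap4 fell by 0.79 ± 0.27 on the log2 scale on this background (adjusted p = 0.0220). It did not pass in Q140 against WT (0.12 ± 0.28, adjusted p = 0.792) or on the Ccdc82+/- background (-0.33 ± 0.30, adjusted p = 0.432), and the average was -0.33 (adjusted p = 0.0844). Its median was 0.202 CPM in Q140 and 0.200 CPM in WT striatum, and 0.151 CPM in Q140 Ccdc82+/- and 0.164 CPM in Ccdc82+/- striatum, so the Ccdc82-/- mice without Q140 had the highest median of the 6 groups. The call was lost without Ccdc82-/- female 2 (-0.63, adjusted p = 0.0752) or Ccdc82-/- male 1 (-0.68, adjusted p = 0.0628), within females (-0.68, adjusted p = 0.306), within males (-0.87, adjusted p = 0.0882) and with the label number as a factor (-0.79, adjusted p = 0.203). The difference between backgrounds, tested as an interaction, was -0.90 ± 0.39 (unadjusted p = 0.0262, adjusted p = 0.998).

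Serpina3n (ENSMUSG00000021091, chr12:104406729-104414329, plus strand) encodes a secreted serine protease inhibitor that rises strongly in reactive astrocytes. It measured 2.72 to 4.04 CPM (median 3.43) in Q140 and 2.56 to 3.46 CPM (median 2.997) in WT striatum. In Q140 Ccdc82+/- striatum it measured 2.96 to 4.39 CPM (median 3.71), against 2.47 to 3.57 CPM (median 2.98) in Ccdc82+/- striatum, with 7 of 8 libraries above the Ccdc82+/- median. In Q140 Ccdc82-/- striatum it measured 2.74 to 3.85 CPM (median 3.44), against 2.697 to 7.02 CPM (median 3.08) in Ccdc82-/- striatum. The groups overlapped in all 3 pairs, and the highest value of all came from a mouse without Q140, Ccdc82-/- male 4. With all libraries no test called a change: the log2 fold changes were 0.18 ± 0.13 (adjusted p = 0.324), 0.27 ± 0.13 (adjusted p = 0.107) and -0.06 ± 0.14 (adjusted p = 0.789), and the average was 0.13 ± 0.08 (adjusted p = 0.155). Without Ccdc82-/- male 4, the Ccdc82-/- difference was 0.18 (adjusted p = 0.167), the Ccdc82+/- difference 0.27 (adjusted p = 0.0142), and Serpina3n rose by 0.21 in the average (adjusted p = 8.41e-04). The call thus depends on that library. With the label number as a factor, Serpina3n fell by 0.35 on the Ccdc82-/- background (adjusted p = 0.0443) and measured 0.02 in the average. On the FPKM scale with all libraries the average rose by 0.20 (adjusted p = 0.0117). The neighbouring Serpina3 genes, from which reads could be shared, averaged at most 3.28 counts a library and were not tested.

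Cd44 (ENSMUSG00000005087, chr2:102811141-102901665, minus strand) encodes the receptor for hyaluronan, and S1pr3 (ENSMUSG00000067586, chr13:51408639-51422797, plus strand) a receptor for sphingosine 1-phosphate, a lipid signal that is raised in reactive tissue. Cd44 was the flattest of the set. Its median was 2.04 CPM in Q140 and 2.10 CPM in WT striatum, 2.02 CPM in Q140 Ccdc82+/- and 2.04 CPM in Ccdc82+/- striatum, and 2.20 CPM in Q140 Ccdc82-/- and 2.27 CPM in Ccdc82-/- striatum. The log2 fold changes were 0.00, 0.00 and 0.08, none past the test, and the 95% interval of the average was -0.07 to 0.13. S1pr3 measured 5.07 to 5.68 CPM (median 5.36) in Q140 striatum, against 4.31 to 5.30 CPM (median 5.05) in WT striatum. All 8 Q140 libraries lay above the WT median, but the groups overlapped, and the difference of 0.12 ± 0.06 did not pass (adjusted p = 0.0890). It was 0.03 and -0.03 on the other backgrounds, and 0.04 in the average. On the FPKM scale S1pr3 rose by 0.16 in Q140 against WT (adjusted p = 0.00726) and by 0.09 in the average (adjusted p = 0.00470), so its call depends on the scaling. Of 10 other tested genes of sphingosine 1-phosphate signalling, 3 rose and 3 fell, beside 28.8% and 25.5% of all genes in the average. Sphk2, a sphingosine kinase, rose by 0.27 ± 0.03, while the receptors S1pr1, which fell by 0.13 ± 0.03, and S1pr2, which fell by 0.37 ± 0.06, went the other way. A small nuclear RNA gene (Gm23731) overlaps Cd44 and a long noncoding RNA gene (Gm32834) overlaps S1pr3, both on the opposite strand.

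Fbln5 (ENSMUSG00000021186, chr12:101746565-101819055, minus strand) encodes fibulin-5, a secreted matrix protein that organises elastic fibres. It showed the clearest difference of the set, and it fell. It measured 4.63 to 7.15 CPM (median 5.74) in Q140 striatum, against 6.205 to 10.4 CPM (median 9.39) in WT striatum, and 6 of the 8 Q140 libraries lay below the lowest WT library. It measured 4.74 to 6.33 CPM (median 5.11) in Q140 Ccdc82+/- striatum, against 8.04 to 10.8 CPM (median 9.24) in Ccdc82+/- striatum. In Q140 Ccdc82-/- striatum it measured 4.66 to 6.12 CPM (median 5.08), against 7.75 to 10.6 CPM (median 8.94) in Ccdc82-/- striatum. On both mutant Ccdc82 backgrounds the groups did not overlap, as was so for 5.76% (Ccdc82+/-) and 5.36% (Ccdc82-/-) of all genes, in the same direction. Fbln5 fell by 0.65 ± 0.08 on the log2 scale in Q140 against WT (adjusted p = 1.44e-08), by 0.84 ± 0.08 on the Ccdc82+/- background (adjusted p = 1.74e-11) and by 0.81 ± 0.09 on the Ccdc82-/- background (adjusted p = 1.87e-10). In the average it fell by 0.77 ± 0.05, and 1.75% of all tested genes changed by more in either direction. The fall was called under each alternative run and in females and males apart, where the average fell by 0.85 and by 0.70. The interactions with the Ccdc82 background did not pass (-0.19 and -0.16, adjusted p of 0.931 and 0.998).

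In bulk tissue, fewer cells of a type and less RNA per cell cannot be told apart. Of all genes, 28.8% rose and 25.5% fell in the average. Markers of the medium spiny neuron, the main neuron of the striatum, moved with Q140 as Fbln5 did: 13 of 14 fell, Tac1 rose, and their median log2 fold change was -0.63. Their summed level was 9268 to 11618 CPM in Q140 and 15824 to 17668 CPM in WT striatum, 9478 to 10670 CPM in Q140 Ccdc82+/- and 15608 to 17995 CPM in Ccdc82+/- striatum, and 9754 to 10772 CPM in Q140 Ccdc82-/- and 15873 to 17781 CPM in Ccdc82-/- striatum. These sums did not overlap in any pair, and none of the 14 markers was at 0. With group and sex removed, Fbln5 still went with these markers over the 47 libraries (r = 0.43, adjusted permutation p = 0.033, and r = 0.41 without the 2 libraries farthest from the median), although the rank correlation did not pass (rho = 0.41, adjusted p = 0.0611). Microglia markers, of which 17 of 18 fell with Q140, also went with Fbln5 (r = 0.39, adjusted permutation p = 0.0453). That relation was weaker without the same 2 libraries (r = 0.32), and its rank correlation did not pass (rho = 0.36, adjusted p = 0.0946). Endothelial (r = 0.06), fibroblast and meningeal (r = 0.18) and mural markers (r = 0.25) did not pass. The part of any of these cell types in the fall of Fbln5 was not tested. Of 12 other elastic fibre genes tested, 2 rose and 3 fell in the average, with a median of -0.11: Fbn1 (fibrillin-1) rose by 0.39 ± 0.12 and Efemp2 (fibulin-4) by 0.26 ± 0.04, while Loxl1, a crosslinking oxidase, fell by 0.35 ± 0.06 and Fbln1 (fibulin-1) by 0.17 ± 0.06.

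H2-D1 (ENSMUSG00000073411, chr17:35262730-35267499, plus strand) encodes a classical MHC class I heavy chain, which presents peptides to CD8 T cells. It measured 29.6 to 35.6 CPM (median 31.6) in Q140 striatum, against 25.5 to 34.1 CPM (median 28.6) in WT striatum. It measured 30.1 to 38.1 CPM (median 33.9) in Q140 Ccdc82+/- striatum, against 26.4 to 38.1 CPM (median 29.6) in Ccdc82+/- striatum. In Q140 Ccdc82-/- striatum it measured 29.8 to 44.6 CPM (median 32.1), against 26.8 to 33.5 CPM (median 29.2) in Ccdc82-/- striatum. All 3 pairs overlapped, yet 8 of 8, 8 of 8 and 7 of 7 Q140 libraries lay above the median of the matching group. H2-D1 rose by 0.17 ± 0.07 in Q140 against WT (adjusted p = 0.0497) and by 0.18 ± 0.07 on the Ccdc82-/- background (adjusted p = 0.0338). The difference on the Ccdc82+/- background was of the same size (0.16 ± 0.07) but did not pass (adjusted p = 0.0574). In the average it rose by 0.17 ± 0.04 (adjusted p = 2.42e-04), 12.5% with a 95% interval of 0.09 to 0.25 on the log2 scale, and this call held whichever library was left out.

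The calls on single backgrounds were less firm, since each lies near the threshold. Within females the log2 fold changes were 0.10, 0.06 and 0.31 on the WT, Ccdc82+/- and Ccdc82-/- backgrounds, of which the last passed (adjusted p = 0.0222), and within males 0.23, 0.26 and 0.08, of which the Ccdc82+/- value passed (adjusted p = 0.0312). The call against WT was lost with RLE scaling, no count filter or no sex term (adjusted p of 0.0570, 0.0825 and 0.0582) and with the plate column (adjusted p = 0.161). It was also lost when any of 29 of the 47 libraries was left out, most of all without Q140 male 4 (0.14, adjusted p = 0.116). On the Ccdc82-/- background it was lost without Q140 Ccdc82-/- female 1, the highest library (0.11, adjusted p = 0.197), without Q140 Ccdc82-/- female 2 (adjusted p = 0.0542), and without Ccdc82-/- female 1, female 4, male 1 or male 2 (adjusted p of 0.0529, 0.0595, 0.0514 and 0.0650). It was lost there too with no count filter (adjusted p = 0.0541), with the compared groups alone (adjusted p = 0.0713) and with the label number as a factor (0.09, adjusted p = 0.375). On the Ccdc82+/- background it was gained without Ccdc82+/- female 1 (0.21, adjusted p = 0.00965), Q140 Ccdc82+/- female 2 (adjusted p = 0.0269), Q140 Ccdc82+/- male 2 (adjusted p = 0.0417) or Q140 Ccdc82-/- female 1 (adjusted p = 0.0257), with the replicate block (adjusted p = 0.0235), on FPKM (0.23, adjusted p = 0.00345) and with the label number (0.24, adjusted p = 0.00280).

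Of 17 other tested genes of class I and antigen processing, 4 rose and 0 fell in the average, beside 28.8% and 25.5% of all genes, with a median of 0.01. H2-T22 rose by 0.34 ± 0.03 (adjusted p = 3.63e-12), Psmb10, an immunoproteasome subunit, by 0.37 ± 0.04, Erap1, which trims peptides, by 0.28 ± 0.03, and the loading chaperone Pdia3 by 0.12 ± 0.04. The other classical heavy chain, H2-K1, measured -0.04 ± 0.05 (adjusted p = 0.571), the light chain B2m 0.01 ± 0.03, and the transporter Tap1 0.05 ± 0.07, none past the test. Among class I relatives outside that list, matched by name and not by sequence, H2-T10 rose by 0.67 ± 0.08 and H2-Q2 fell by 0.56 ± 0.08. Class I genes are near-identical in places, so the division of reads between H2-D1 and other class I genes is uncertain. Markers of microglia (17 of 18 lower) and endothelium (11 of 12 lower), cell types rich in class I, went the opposite way to H2-D1 with Q140. The summed microglia markers ran from 575 to 615 CPM in Q140 and from 608 to 656 CPM in WT striatum, and the endothelial markers from 286 to 317 CPM in Q140 and from 298 to 354 CPM in WT striatum. Their part in the values of H2-D1 was not tested.

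C4b (ENSMUSG00000073418, chr17:34728380-34743882, minus strand) encodes complement component C4, which astrocytes and other glia raise with age and inflammation. It measured 27.5 to 51.9 CPM (median 36.4) in Q140 and 29.2 to 51.8 CPM (median 38.7) in WT striatum. On the Ccdc82+/- background it measured 32.0 to 45.4 CPM (median 38.1) in Q140 Ccdc82+/- and 30.4 to 51.4 CPM (median 38.7) in Ccdc82+/- striatum. In Q140 Ccdc82-/- striatum it measured 27.5 to 50.2 CPM (median 35.7), against 36.8 to 50.2 CPM (median 42.3) in Ccdc82-/- striatum, and 4 of the 7 Q140 Ccdc82-/- libraries lay below the lowest Ccdc82-/- library. The groups overlapped in all 3 pairs, and no test called a change. The log2 fold changes were -0.07 ± 0.12, -0.00 ± 0.12 and -0.24 ± 0.12 (adjusted p of 0.695, 0.987 and 0.135), and the average was -0.10 with a 95% interval of -0.24 to 0.04. Without Q140 Ccdc82-/- female 2, the highest of its group, C4b fell by 0.34 on the Ccdc82-/- background (adjusted p = 0.0263). Only 1 of the 47 omissions gave a call there. Over all of them the difference ran from -0.34 to -0.18, with adjusted p of up to 0.299, so that call rests on leaving out 1 library.

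The neighbouring copy C4a lies 65210 bases from C4b on the same strand, and the annotation lists it as a processed transcript. It measured 2.35 to 3.98 CPM (median 3.20) in Q140 and 3.71 to 7.14 CPM (median 6.02) in WT striatum, with an overlap. WT females measured 6.16 to 7.14 CPM and WT males 3.71 to 5.89 CPM, and the WT libraries in the overlap were males. In Q140 Ccdc82+/- striatum C4a measured 2.64 to 3.75 CPM, against 4.62 to 6.47 CPM in Ccdc82+/- striatum. In Q140 Ccdc82-/- striatum it measured 2.78 to 4.28 CPM, against 4.43 to 6.19 CPM in Ccdc82-/- striatum. Neither pair overlapped, as was so for 5.76% (Ccdc82+/-) and 5.36% (Ccdc82-/-) of all genes in the same direction. C4a fell by 0.77 ± 0.11 (adjusted p = 2.62e-07), 0.82 ± 0.11 and 0.60 ± 0.12 on the 3 backgrounds, and by 0.73 ± 0.07 in the average (adjusted p = 1.36e-13). Its share of the counts of both copies was 7.79% ± 1.09 in Q140 and 12.4% ± 4.16 in WT striatum (SD, n = 8 each), 7.70% ± 1.37 in Q140 Ccdc82+/- and 12.8% ± 1.23 in Ccdc82+/- striatum (n = 8 each), and 8.83% ± 2.02 in Q140 Ccdc82-/- (n = 7) and 10.9% ± 1.25 in Ccdc82-/- striatum (n = 8). The 2 copies are near-identical over much of their length, so which reads were given to which copy is uncertain, and a shift of the share shows unequal change only. Of 16 other tested complement genes, C4a among them, 13 fell and 0 rose in the average, where 25.5% of all genes fell and 28.8% rose. Cd59a, an inhibitor of the membrane attack complex, fell by 0.89 ± 0.07, Cd55, which breaks down the convertases, by 0.40 ± 0.04, and C1qc, a subunit of C1q made by microglia, by 0.17 ± 0.02. C3, which marks one reactive astrocyte state in mice, measured -0.17 ± 0.23 and did not pass.

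**Figure D3:**
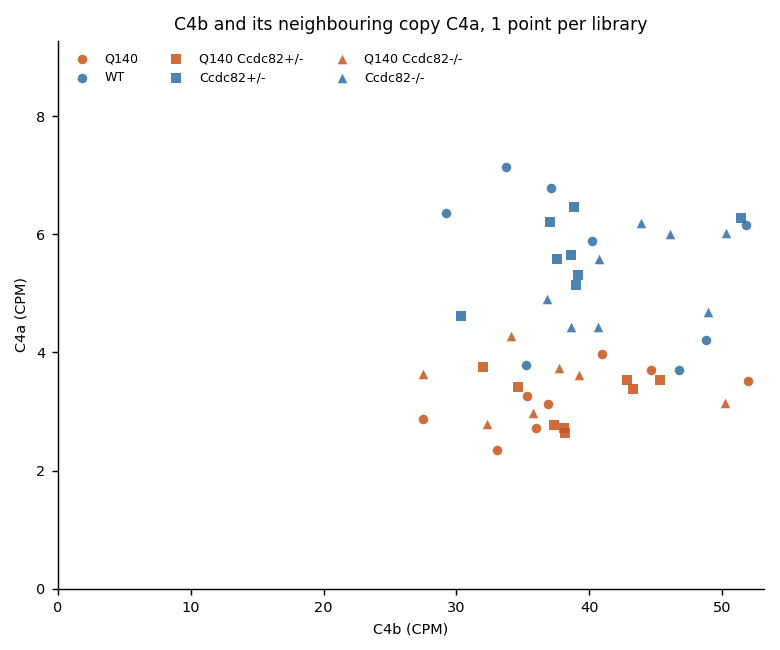
C4b (horizontal axis, CPM) against its neighbouring copy C4a (vertical axis, CPM), 1 point per library, with the 3 Q140 genotypes in orange and the 3 genotypes without Q140 in blue. C4a separates most Q140 libraries (2.35 to 4.28 CPM) from the rest (3.71 to 7.14 CPM), while C4b spans the same range in both.

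No difference between Ccdc82 genotypes was detected for any of the 10 genes. Ccdc82 counts remained in Ccdc82-/- striatum (mean 4.57 CPM, against 12.01 CPM in WT), and its protein was not measured. In each of the 4 comparisons of Ccdc82 genotype, 0 of the 10 genes passed the edgeR test, and 0 did by DESeq2. Of all genes, 1 of 19193 (0.00521%) was called, and it was Ccdc82 itself each time. For Ccdc82+/- against WT the 10 log2 fold changes ran from -0.15 to 0.07, and 0 had an unadjusted p under 0.05. In Ccdc82-/- against WT all 10 were above 0, from 0.02 to 0.71 with a median of 0.11, and 1 had an unadjusted p under 0.05. Without Ccdc82-/- male 4 the value of Gfap was -0.03, without WT male 1 that of Fbln5 was -0.04, and without Ccdc82-/- male 3 that of H2-D1 was -0.0038, so these 3 signs are not stable. The gene with the unadjusted p under 0.05 was Steap4 (0.71 ± 0.27, edgeR unadjusted p = 0.0108), which measured 0.161 to 0.485 CPM in Ccdc82-/- striatum and 0.0733 to 0.256 CPM in WT striatum, an overlap. Serpina3n measured 0.24 ± 0.13 in Ccdc82-/- against WT, and 0.01 without Ccdc82-/- male 4. Osmr measured 0.09 ± 0.08, and 0.03 without that library. Among Q140 mice, the values ran from -0.44 to 0.17 for Q140 Ccdc82+/- against Q140 and from -0.19 to 0.14 for Q140 Ccdc82-/- against Q140, with 0 genes at an unadjusted p under 0.05 in either.

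No interaction of Q140 with Ccdc82 was called, for the 10 genes or for any gene (0% of genes on either background, with 1011 and 826 genes at an unadjusted p under 0.05). DESeq2 called 1 gene for the Ccdc82+/- interaction and 0 for the other, and the label number as a factor called 167 genes for the Ccdc82-/- interaction, none of the 10 among them in either case. The interaction log2 values of the 10 genes ran from -0.44 to 0.32 and from -0.90 to 0.08, both ends at the low side being Steap4. Females and males differed in 8.67% of all genes but in 0 of the 10, and by DESeq2 also in 0. Steap4 came nearest, at -0.34 ± 0.16 in females against males (unadjusted p = 0.0444, adjusted p = 0.193). The Q140 effect did not differ between females and males for any of the 10 genes (log2 differences from -0.35 to 0.21) or for any gene at the threshold (0% of 19714 genes, 621 at an unadjusted p under 0.05), and DESeq2 also called 0 of the 10.

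Most pairs of the 10 genes were not called as correlated from mouse to mouse. With group and sex removed, 5 of their 45 pairs correlated over the 47 libraries past an adjusted permutation p of 0.05, and the median r over all pairs was 0.12. The share of such pairs among other genes is not given here, so the count is not read as low or high. Low counts can lower r, as for Steap4 (3 to 21 a library) and Cd44 (60 to 140). Gfap went with Serpina3n (r = 0.57, rho = 0.51, adjusted p = 4.5e-04, and r = 0.46 without the 2 libraries farthest from the median) and with Osmr (r = 0.44, rho = 0.39, adjusted p = 0.0174, and r = 0.32 without 2). Vim went with Osmr (r = 0.50, rho = 0.56, adjusted p = 0.0063, and r = 0.49 without 2) and with C4b (r = 0.52, rho = 0.48, adjusted p = 0.0054, and r = 0.40 without 2). Cd44 and C4b went opposite ways (r = -0.45, rho = -0.46, adjusted p = 0.0174, and r = -0.40 without 2). The rank correlation of Gfap with Osmr missed the threshold (adjusted p = 0.0594).

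Set against markers of cell types, 15 of 110 relations passed, and the share for other genes is not given here. Gfap followed the homeostatic astrocyte markers most closely (r = 0.80, rho = 0.76, adjusted p = 2.2e-04, and r = 0.77 without 2), then markers of oligodendrocyte precursors (r = 0.72) and oligodendrocytes (r = 0.67). Vim followed the ependymal markers, the ciliated cells that line the ventricle (r = 0.78, rho = 0.78, adjusted p = 2.2e-04, and r = 0.74 without 2), as C4b did (r = 0.67, rho = 0.62, adjusted p = 2.2e-04, and r = 0.68 without 2). Summed ependymal markers ran from 16.2 to 42.2 CPM in Q140 and from 23.9 to 63.3 CPM in WT striatum, and from 23.6 to 64.1 CPM in Q140 Ccdc82-/- and from 30.7 to 50.9 CPM in Ccdc82-/- striatum, so they varied several-fold between mice and overlapped between groups. Their part in the values of Vim and C4b was not tested. Serpina3n went with homeostatic astrocyte markers (r = 0.43) and oligodendrocyte precursor markers (r = 0.47), although neither rank correlation passed (adjusted p = 0.0673 for both). Gfap went opposite to medium spiny neuron markers (r = -0.40, rho = -0.49). The relations were not recomputed within plate columns. No list passed for H2-D1, S1pr3 or Steap4.

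**Figure D4:**
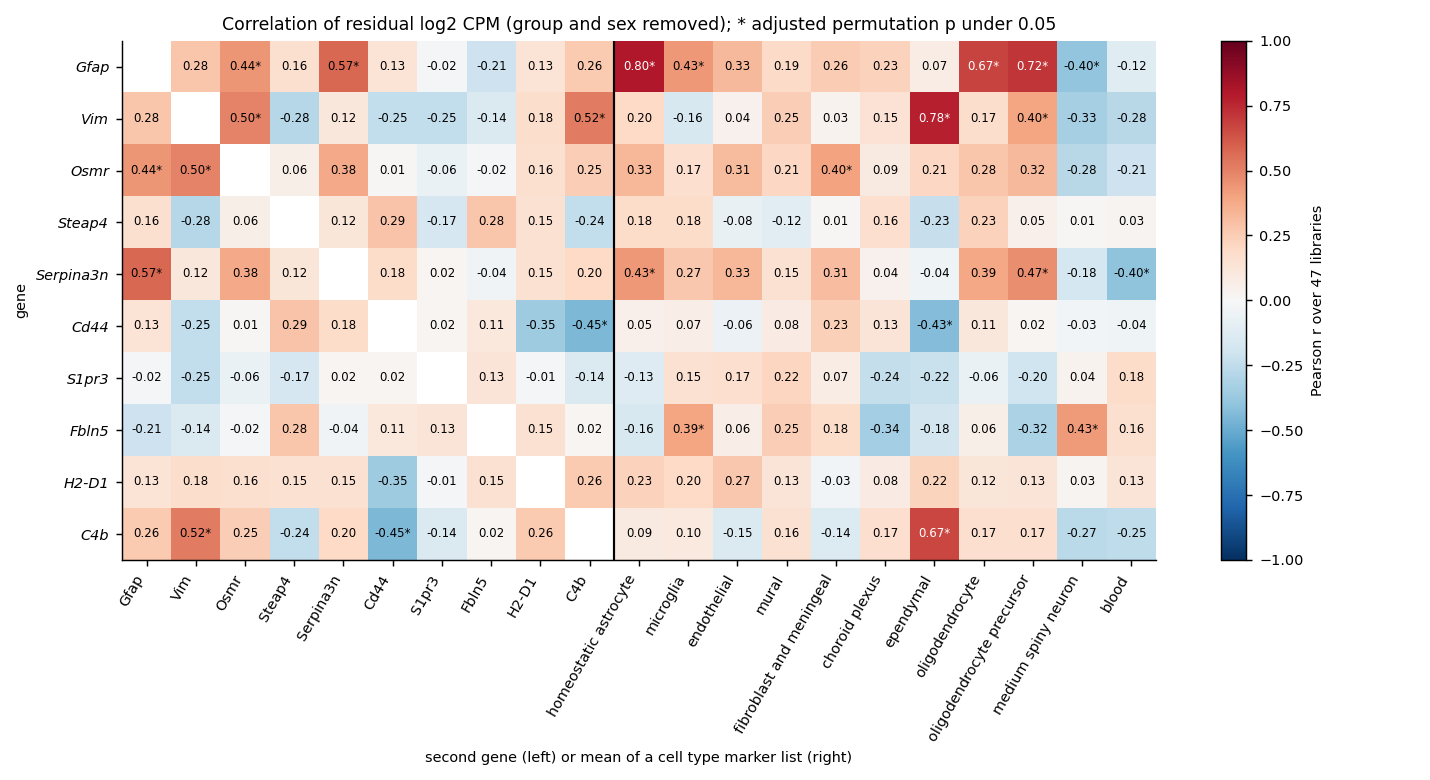
Pearson r (colour and number) over 47 libraries between log2 CPM residuals of each of the 10 genes, after group and sex were removed, and those of the other 9 genes (left) or the mean of a cell type marker list (right); stars mark an adjusted permutation p under 0.05. The largest values are Gfap with homeostatic astrocyte markers (0.80) and Vim with ependymal markers (0.78).

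The genes most like each member by the same measure, among 13858 genes, give a further description. For Gfap they were Kcnj10 (an astrocyte potassium channel, r = 0.84), Padi2 (0.83) and Rassf4 (0.83). For Vim they included Foxj1, the regulator of motile cilia (0.84), and Anxa2 (0.84). For Osmr they were Gpr3 (0.77), the filament gene Nes (0.76) and Spry4 (0.74). For Fbln5 they were Arhgdib (0.72), the phosphatase inhibitor Ppp1r1a (0.66) and Gmpr (0.65). For H2-D1 they were the class I genes H2-K1 (0.87) and H2-Q4 (0.79) and the light chain B2m (0.77), although neither H2-K1 nor B2m rose with Q140. Their rank correlations were lower (rho of 0.80, 0.60 and 0.66). Q140 Ccdc82-/- female 1 was the highest library for H2-D1, H2-K1 (32.1 CPM) and H2-Q4 (8.63 CPM), and r was not recomputed without it. For C4b they were the matrix genes Prelp (0.79), Col6a5 (0.74) and Vit (0.74). Serpina3n was nearest to Gfap (0.57), and for Cd44, Steap4 and S1pr3 the highest r were 0.57, 0.63 and 0.56. All values of r share the library, its dissection and its depth, and were picked as the highest of many.

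A longer list of 33 other reactive astrocyte genes had 26 tested, of which 3 rose and 6 fell in the average, with a median of -0.04. Of all genes, 28.8% rose and 25.5% fell in the average. Ptgs2 (cyclooxygenase 2) rose by 0.73 ± 0.06, Thbs1 (thrombospondin 1) by 0.79 ± 0.10 and Fkbp5 by 0.09 ± 0.03, while S100a10 fell by 0.63 ± 0.07 and Amigo2 by 0.36 ± 0.04, and all 5 genes are expressed by neurons or other cells as well. Genes used as defining markers of strong reactivity, Lcn2, Timp1 and Ptx3, had too few counts to be tested. The homeostatic astrocyte markers were mostly lower: 10 of 16 fell and 1 rose, with a median of -0.09, and 5 fell on the FPKM scale. Among them the bicarbonate transporter Slc4a4 fell by 0.29 ± 0.02, the glutamate transporter Slc1a2 by 0.21 ± 0.02 and the pump subunit Atp1b2 by 0.26 ± 0.02, and S100b rose by 0.12 ± 0.02. Their summed level was 5840 to 6295 CPM in Q140 and 6398 to 7029 CPM in WT striatum, 5768 to 6298 CPM in Q140 Ccdc82+/- and 6307 to 6985 CPM in Ccdc82+/- striatum, and 5843 to 6060 CPM in Q140 Ccdc82-/- and 6567 to 7118 CPM in Ccdc82-/- striatum. These sums did not overlap in any pair, but they weigh the abundant markers most. Aldh1l1 measured 32.0 to 46.5 CPM in Q140 and 40.1 to 49.9 CPM in WT striatum. Aldh1l1 and Aqp4 overlapped in all 3 pairs. Slc1a3 overlapped in Q140 against WT and on the Ccdc82+/- background, but not on the Ccdc82-/- background. Markers of other cell types that hold some of the 10 genes also fell on the TMM scale, with medians of -0.14 for microglia, -0.17 for endothelium and -0.11 for mural cells. Their part in the values above was not tested.

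**Figure D5:**
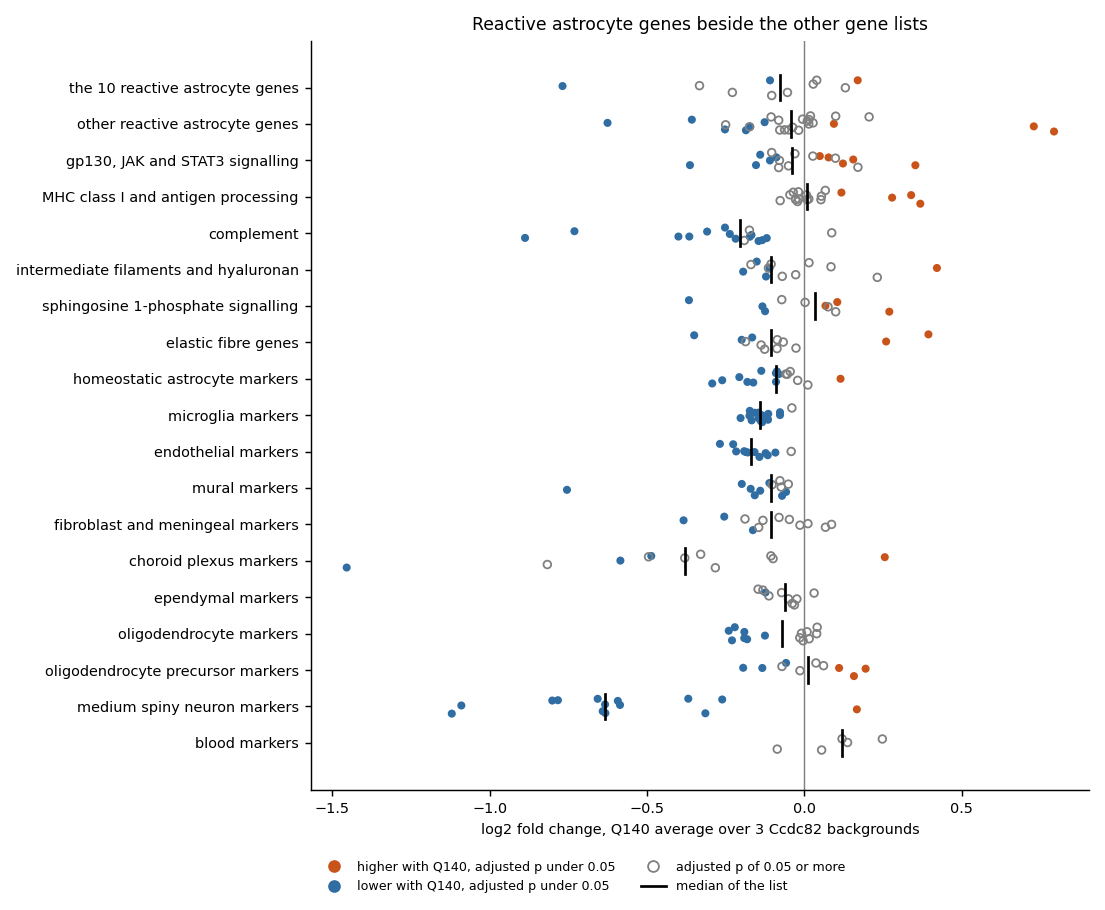
Log2 fold change for Q140, averaged over the 3 Ccdc82 backgrounds (horizontal axis), of the 10 reactive astrocyte genes (top row) and of each other gene list, 1 point per tested gene, with the median of each list as a bar. The 10 genes have a median of -0.08, between the microglia (-0.14) and the gp130 signalling lists (-0.04). The medians of the homeostatic astrocyte, mural and elastic fibre lists lie between theirs and that of microglia, with the homeostatic astrocyte list the nearest of these. The medium spiny neuron markers lie lowest at -0.63.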

How the data were processed

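RNA from the striatum of 47 mice was sequenced, and the deposited tables hold read counts and FPKM per gene. Per the submitters' processing notes, the authors used STAR 2.7.5c, SAMtools 1.10 and HTSeq 0.12.3 with GRCm38 (mm10); the notes used here give no options, so the strand setting of the deposited counts is not known. The authors also deposited FPKM, which scale counts by gene length and library size, and these served for levels between genes and for an alternative test.

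The 10 members and all gene lists were chosen with earlier results of these data known. Beyond the 10, Ccdc82, Htt and relatives of the 10 matched by name, each list gave at most 4 names, those of lowest p in the Q140 average. Nes, Synm, Stat3, Socs3, Il6st, B2m, Tap1, C3, Fkbp5, S100b, Tac1 and the untested genes were added for their role, after their values were seen. Aldh1l1, Aqp4 and Slc1a3 were added to show single markers, also after their values were seen. One listed gene is not reported here. Genes most like a member are the 3 with the highest r.

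Counts were tested with edgeR 4.0.16 (R 4.3.3): filterByExpr kept 19193 of 48795 genes, TMM scaling was applied, and a quasi-likelihood model with 1 term per genotype and a sex term left 40 residual degrees of freedom. P-values were adjusted over all tested genes by Benjamini-Hochberg with a threshold of 0.05, and ± after a log2 fold change is its standard error. The sex difference of the Q140 effect came from a model with 12 groups (19714 genes). Correlations used residuals of log2 CPM with 100000 permutations, two-sided, adjusted within each family. The model was tested on simulated counts. Library totals of 41327333 to 61701245 counts limit only the low genes, chiefly Steap4.

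Alternatives were RLE size factors, DESeq2 1.42.0, no count filter, no sex term, a replicate block, the plate column of each well as a factor, limma 3.58.1 on log2(FPKM + 0.1) for 19704 genes with a mean FPKM of at least 0.1, the compared groups alone, each sex alone, and each library left out. The first number of the label ID as a factor was added after seeing the data; each number holds 1 sex, so it replaced the sex term. The 6 plate columns were filled unevenly: WT had 4 libraries in column 4 and 0 in column 1, and Q140 had 3 in column 1 and 0 in column 4.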

Additional observations from a re-analysis of the deposited data

Results flagged for a closer look

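For each of the 10 genes in each of the 6 groups, the library farthest from the rest was compared with the group's range (Dixon's test at the 95% level). It stood apart in 8 of 60 sets, in 6 libraries; chance gives about 1 in 20. In Ccdc82-/- male 4, Gfap measured 53.3 CPM (33.4 in the next library) and Serpina3n 7.02 CPM (3.67 in the next). In Ccdc82+/- female 2, C4b was high at 51.4 CPM (39.2 in the next) and S1pr3 low at 4.27 CPM (4.83 in the next). H2-D1 measured 44.6 CPM in Q140 Ccdc82-/- female 1 (34.8 in the next), and Fbln5 measured 6.33 CPM in Q140 Ccdc82+/- female 3 (5.44 in the next), which is still below every Ccdc82+/- library. Cd44 measured 2.47 CPM in Ccdc82+/- female 4 (2.07 in the next) and Steap4 0.388 CPM in Ccdc82+/- female 1 (0.194 in the next).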

How the results depend on the processing

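The 44 log2 fold changes given singly for the 10 genes were recomputed under the alternatives, 371 values in all. Of these, 328 kept their direction and side of the threshold, 10 lost a call, 12 gained one and 21 changed sign, none of them from a called value. Fbln5 was called lower under each alternative in all 4 comparisons. Cd44 in Q140 against WT came to -0.0046 with RLE, -0.0087 with DESeq2, -0.000035 without the sex term and -0.00082 with the compared groups alone. On the Ccdc82+/- background, Cd44 came to -0.0020 with RLE, -0.0013 with DESeq2 and -0.035 with the plate column, C4b to 0.0024 with the replicate block and 0.072 on FPKM, and Vim to 0.066 on FPKM. On the Ccdc82-/- background, Serpina3n came to 0.011 with the plate column and 0.069 on FPKM, and S1pr3 to 0.034 on FPKM. In the average, Vim came to 0.0096 on FPKM. The first number of the label ID as a factor, chosen after seeing the data, gave 0.061 (Gfap), -0.110 (Cd44) and 0.010 (Osmr) in Q140 against WT, 0.097 (Vim), -0.104 (Cd44) and 0.183 (C4b) on the Ccdc82+/- background, and -0.052 (Cd44) in the average. It called 2 of the 10 genes on the Ccdc82+/- background and, over all genes, 0 for Q140 Ccdc82+/- against Q140, 10 for Q140 Ccdc82-/- against Q140 and 167 for the Ccdc82-/- interaction. Residuals of libraries with the same label number had a median correlation of 0.065 (45 pairs), against -0.020 for the other 1036 pairs.

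The count of the 10 genes called in Q140 against WT went down to 1, with H2-D1 lost, with RLE, no filter, no sex term, females or males. On the Ccdc82+/- background it was 2 with the replicate block, plate column, compared groups or males, and 3 on FPKM. On the Ccdc82-/- background it was 1 with the compared groups or males. Over all genes, Ccdc82+/- against WT gave 2 with the plate column or FPKM, the Ccdc82+/- interaction 1 with DESeq2 or the plate column, females against males 1083 with no filter, and the sex difference of the Q140 effect 1 on FPKM. Plate column terms called Serpina3n higher on the Ccdc82+/- background (0.37, adjusted p = 0.0350).

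Leaving out each library gave counts of 1 to 2, 1 to 2, 1 to 3 and 2 to 3 called genes in the 4 Q140 comparisons. The differences that changed sign ran from -0.042 to 0.036 (Cd44) for Q140 against WT, from -0.047 to 0.071 (C4b), -0.028 to 0.041 (Cd44), -0.069 to 0.104 (Gfap), -0.0035 to 0.055 (S1pr3) and -0.051 to 0.039 (Vim) on the Ccdc82+/- background, and from -0.107 to 0.178 (Serpina3n) on the Ccdc82-/- background. The replicate numbers did not pair the libraries: residuals of same-numbered libraries had a median correlation of -0.017, against -0.038 for differently numbered ones, and 10 of 47 libraries correlated best with their own number. With the replicate block, H2-D1 on the Ccdc82+/- background had an adjusted p of 0.0235. Steap4 lay below the FPKM minimum, and below the count filter in the Ccdc82-/- pair alone, so it was not run there. Depth limits Steap4 most. The causes of these changes were not tested.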
